A study of Ovis aries with 9 samples.

Results

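Wnt signalling sets up the zones of the liver lobule, and 10 genes of this pathway were followed through single hepatocytes of female sheep. The genes were taken by symbol from the count table, in which all 10 were found among 28837 named genes. They are CTNNB1, APC and TCF7L2 of the core of the pathway, the receptors LGR4 and LGR5, the receptor ligases RNF43 and ZNRF3, the feedback inhibitors AXIN2 and NKD1, and the transcription factor TBX3. As background, beta-catenin (the protein of CTNNB1) is destroyed in a complex that holds APC and AXIN2 until a Wnt ligand binds its receptor at the cell surface. It then enters the nucleus and acts with TCF factors such as TCF7L2. In mouse liver the ligands and the R-spondins that amplify them come largely from endothelium of the central vein, so that pericentral hepatocytes carry the pathway's target genes while periportal ones do not.

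The cells came from liver digested with collagenase, were picked by hand and were each made into their own Smart-seq3xpress library, a plate-based method. The groups were 2 lactation samples (days 7 and 15 after birth), 6 gestation samples (days 40 to 50, 50 to 70, 70 to 80, 90 to 100, 100 to 120 and 140 to 150) and 1 virgin sample, with 1 sample per stage. The labels name no treatment, genetic change, breed or age for any of them. They name no separate animals either, and every p-value below rests on the variation among the 9 stages alone, which may be technical. The count table held 3404 cells of 36518 to 3842012 reads each, and a stage had 246 to 553 cells and 114865665 to 272944124 reads. The 12 measured hepatocyte markers summed to 84753 to 194432 CPM (read counts relative to the library's total) over the stages, and were lowest in lactation (84753 and 114770 CPM). Sums of cell type markers, here and below, were not scaled by TMM, while levels of single genes per stage or class were. Markers of other cells summed to at most 54.8 CPM for bile duct, 50.0 for macrophages, 52.8 for lymphocytes, 23.7 for stellate cells, 15.3 for endothelium, 14.0 for neutrophils and 243 for red cells, and the macrophage marker CD68 was at 0 in every stage. The bile duct sum was mostly 1 gene, CLDN4 (21.8 to 53.7 CPM), and the next highest marker, CFTR, reached 2.01 CPM. The highest red cell sum was mostly HBB (up to 242 CPM).

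Per kilobase of the gene length in the authors' table, the 10 genes spanned a wide range of levels. CTNNB1 was the highest, with a mean over the 9 stages of 78.4 CPM per kilobase. TBX3, a T-box repressor and Wnt target, followed at 22.5, TCF7L2 at 13.7 and LGR4 at 7.08 CPM per kilobase. ZNRF3 stood at 1.96, LGR5 at 1.39, APC at 0.992, AXIN2 at 0.916 and RNF43 at 0.544 CPM per kilobase. NKD1, which binds Dishevelled and dampens the pathway, was the lowest at 0.0207 CPM per kilobase. The order depends on the lengths used, which were 29776 bases for APC, 16793 for RNF43 and 15880 for NKD1, against 4471 for LGR5. Without division by length the means were 29.5 CPM for APC, 9.13 for RNF43, 6.23 for LGR5 and 0.328 for NKD1.

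Shares of cells with a read were taken after each cell had been thinned to 155164 reads, so that depth was equal. CTNNB1 was read in 99.4 to 100% of the cells of a stage and TBX3 in 80 to 95.3%. LGR4 was read in 69.3 to 95.3%, TCF7L2 in 65.6 to 94.8% and APC in 52.9 to 87.3%. ZNRF3 reached 33.5 to 67.6% and RNF43 17.9 to 51.6% of cells. LGR5, the receptor that marks the innermost pericentral hepatocytes in mouse, had reads in 9.29 to 34.3% of cells, and AXIN2 in 10.8 to 33.8%. NKD1 was read in 57 of 3063 thinned cells, with 0 to 7.04% by stage. Before thinning the shares were 12.1 to 37.5% for LGR5, 12.4 to 42.7% for AXIN2 and 0.687 to 7.51% for NKD1. In the stage of days 40 to 50 it had 0 of 265 cells, which at 3 counts of the total allows a share of up to 1.13% of cells with a read. A read in a thinned cell is worth 6.44 CPM, so a cell without a read of the low genes need not lack the transcript. In a sum over the cells of a stage, fewer cells with a transcript and less of it per cell cannot be told apart.

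Across the stages, LGR5 stood at 6.42 CPM in the virgin sample. In gestation it had 5.74, 9.35, 12.8, 5.15, 5.70 and 3.47 CPM in order of day, and in lactation 4.17 CPM at day 7 and 3.32 CPM at day 15. The highest level was that of days 70 to 80 and the lowest that of day 15 of lactation, 3.84-fold apart, and the lactation and gestation stages overlapped. In 4 of the 8 neighbouring pairs in the order of its levels the exact 95% counting intervals overlapped.

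AXIN2, a scaffold of the destruction complex that the pathway itself switches on, had 3.07 CPM in the virgin sample. It had 2.44, 4.43, 1.92, 2.41, 3.75 and 1.28 CPM over gestation, and 7.65 and 5.61 CPM at days 7 and 15 of lactation. Both lactation samples lay above every other stage. LGR4, the broadly expressed relative of LGR5, was lowest in lactation, with 34.1 and 29.0 CPM at days 7 and 15. It had 38.9 to 52.1 CPM in gestation (median 45.3) and 40.1 CPM in the virgin sample. Both lactation samples lay below every other stage. In lactation LGR4 averaged 31.6 ± 3.58 CPM (SD, n = 2), against 45.5 ± 4.52 CPM in gestation (SD, n = 6), and AXIN2 averaged 6.63 ± 1.44 CPM in lactation, against 2.71 ± 1.17 CPM in gestation.

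CTNNB1 and TCF7L2, whose proteins act together on DNA, both had their lowest level at days 40 to 50 and their highest at days 50 to 70. CTNNB1 had 432 CPM in the virgin sample, 202, 597, 390, 524, 303 and 333 CPM over gestation, and 252 and 301 CPM at days 7 and 15 of lactation. TCF7L2 had 145 CPM in the virgin sample, 76.9, 211, 140, 177, 95.9 and 125 CPM over gestation, and 90.3 and 131 CPM in lactation. The highest and lowest stages were 2.96-fold apart for CTNNB1 and 2.75-fold for TCF7L2, with overlapping counting intervals in 1 and 0 of 8 neighbouring pairs. These intervals leave out variation between cells and do not settle the order of the stages, since deeper cells weigh more in a sum. In thinned cells with a read, without TMM, TCF7L2 averaged 146 CPM at days 90 to 100. It averaged 157 CPM in the virgin sample and 153 CPM at days 70 to 80, unlike the order of the sums. Days 50 to 70 (218 CPM) and days 40 to 50 (100 CPM) remained the highest and lowest. The 2 lactation samples lay within the range of gestation for both genes.

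TBX3 had 119 CPM in the virgin sample, 69.9, 110, 114, 151, 88.0 and 88.0 CPM over gestation, and 111 and 136 CPM in lactation. NKD1 had 0.317 CPM in the virgin sample, and 0.0241, 0.414, 0.877, 0.183, 0.132 and 0.186 CPM over gestation, of which the first rests on 3 reads. It had 0.465 and 0.355 CPM in lactation. APC varied least, 1.39-fold from its lowest to its highest stage (24.0 to 33.5 CPM), then ZNRF3 with 1.63-fold (9.31 to 15.2 CPM), and RNF43 spanned 5.33 to 11.2 CPM. Neighbours in the order of levels overlapped in 6 of 8 pairs for APC, 7 for RNF43 and 4 for ZNRF3. The lactation and gestation stages overlapped for each of these 5 genes.

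**Figure D1:**
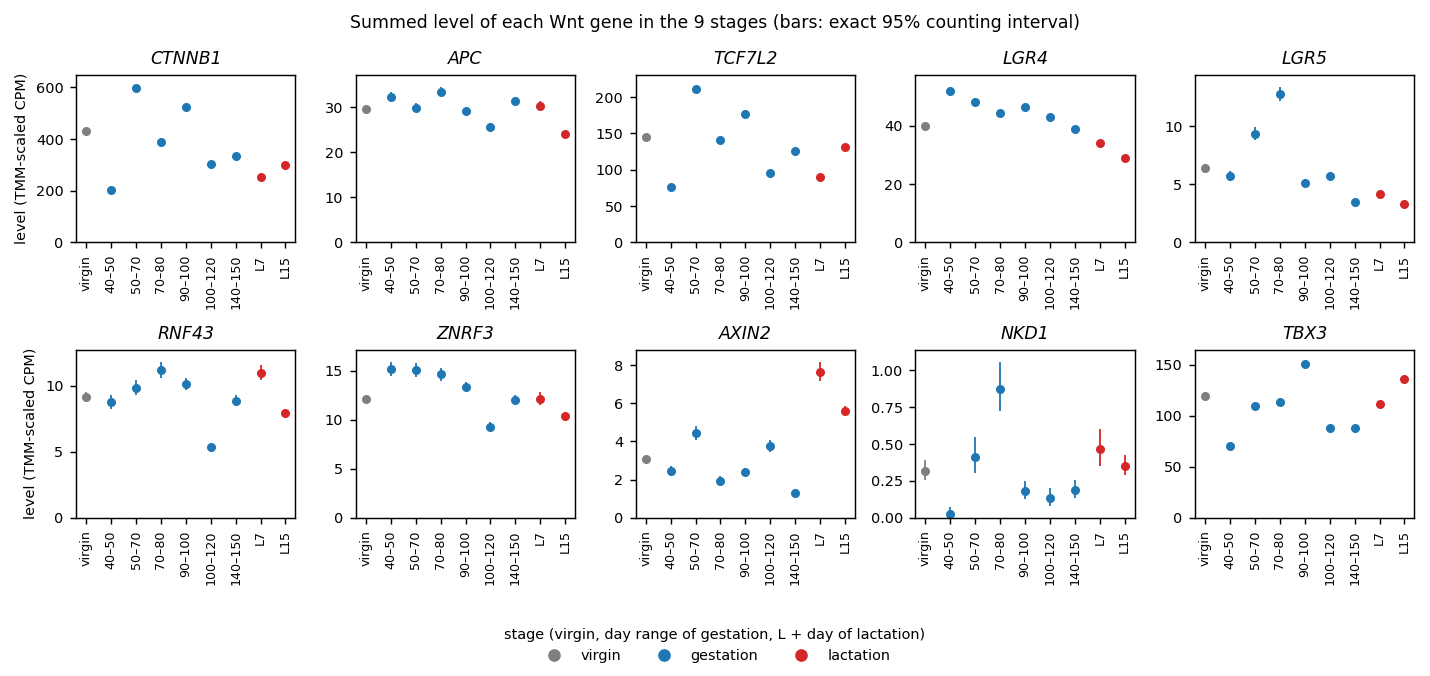
Summed level of each gene (TMM-scaled CPM, vertical axes from 0) in the 9 stages, with exact 95% counting intervals that cover counting error only. AXIN2 is highest at days 7 and 15 of lactation (7.65 and 5.61 CPM), LGR4 is lowest there (34.1 and 29.0 CPM), and LGR5 peaks at days 70 to 80 of gestation (12.8 CPM).

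Between lactation and gestation AXIN2 was the member with the largest difference, at 1.29 on the log2 scale (SE 0.40). Its adjusted p was 0.327 in edgeR's quasi-likelihood test with Benjamini-Hochberg adjustment. LGR4 had -0.53 (SE 0.17, adjusted p = 0.332) and LGR5 -0.91 (SE 0.45, adjusted p = 0.576). In all, 0 of the 10 members were called at an adjusted p under 0.05, where 0.0592% of the 20263 genes tested were, and DESeq2 called 0 members too. Limma, which here and below left out NKD1 for its mean under 1 CPM, also called 0. At an unadjusted p under 0.05 there were 2 members, AXIN2 (0.009) and LGR4 (0.0094), where 1905 of the 20263 genes tested lay under it. The same 2 of 10 members had lactation stages that did not overlap gestation, against 13.4% of the genes with a mean of at least 1 CPM. The other 7 members had log2 fold changes of -0.50 to 0.44. Library size as the only scaling moved the median log2 fold change of all genes to 0.18 against -0.01 with TMM and the 6 higher and 6 lower calls to 16 and 6. On that scale AXIN2 was at 1.49 and LGR4 at -0.34. The 12 hepatocyte markers had a median log2 fold change of -0.68 in the same contrast, and neutrophil markers summed to 8.99 to 14.0 CPM in lactation, against 1.02 to 2.64 CPM in gestation. Their part in the member values was not tested.

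No member was called in the other phase comparisons either. The members' log2 fold changes of gestation against virgin lay between -0.21 and 0.18, and 0 of 10 were called, with 0 at an unadjusted p under 0.05 and 0 called by DESeq2 or limma (background 0.00494% of genes called). Library size as the only scaling moved the median of all genes in this comparison to -0.08, against 0.06 with TMM. Lactation against virgin gave -0.78 to 1.11, with AXIN2 the highest (SE 0.67, adjusted p = 0.965, edgeR). In edgeR and DESeq2 0 of 10 members were called, with 0 at an unadjusted p under 0.05 in edgeR (background 0.0% of genes called), and limma, without NKD1, called 0. The virgin phase was 1 sample, assumed to vary like the others, and the 3 phase comparisons share samples.

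Over gestation 9 of the 10 members had a negative slope on the midpoint of the day range. Slopes are log2 units per 100 days from edgeR. LGR5 had the steepest, -1.34 (SE 0.64, adjusted p = 0.809), AXIN2 -0.86 (SE 0.74, adjusted p = 0.961), ZNRF3 -0.51 (SE 0.29, adjusted p = 0.881) and LGR4 -0.38 (SE 0.20, adjusted p = 0.869). In edgeR, DESeq2 and limma 0 members were called, 0 had an unadjusted p under 0.05 in edgeR, and 0.0336% of all genes were called. AXIN2 rested on the last stage, with a slope of 0.16 without days 140 to 150. The slope of LGR5 was -2.06 without days 40 to 50 and -0.77 without days 140 to 150, and that of ZNRF3 was -0.95 without days 140 to 150.

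Within a stage, several members differed between cells with much and little CYP2E1. LGR5, TBX3, ZNRF3 and CTNNB1 were called higher with much CYP2E1 in the main fit and in all 17 alternative fits. CYP2E1, a cytochrome of ethanol and drug metabolism and a broad pericentral marker, was read in every thinned cell. The cells of each stage were split by CYP2E1 into 3 classes of nearly equal size. The highest (CYP2E1-high, 1020 cells in all) was set against the lowest (CYP2E1-low, 1024 cells), and the 9 stages served as pairs. Of all thinned cells 2106 lay within 2-fold of the upper bound, so a class is a range and not a cell type. In CYP2E1-high cells 6 of 10 members were higher (background 4.57% of 15536 genes), of which NKD1 entered the test only through these cells, and 1 was lower (background 3.66%). The members' median log2 fold change was 0.57, also with NKD1 at its bound, against -0.01 over all genes tested. Scaled by library size alone, all genes gave 553 higher and 753 lower calls, against 710 and 569 with TMM, and 5 members were higher and 1 lower.

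LGR5 had the largest difference with reads in both classes. Its level in CYP2E1-high cells was 4.83 to 30.6 CPM over the stages (median 9.49), against 0.079 to 2.76 CPM (median 0.611) in CYP2E1-low cells. The classes did not overlap and LGR5 was higher in CYP2E1-high cells in 9 of 9 stages. This was a 17.8-fold difference, 4.15 on the log2 scale (SE 0.36, adjusted p = 1.68e-06, edgeR). CYP2E1-high cells held 55.8 to 82.0% of the LGR5 reads of a stage.

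TBX3 had 123 to 214 CPM in CYP2E1-high cells (median 171) and 22.2 to 85.8 CPM in CYP2E1-low cells (median 52.0). These classes did not overlap either, and the difference was 1.66 on the log2 scale (SE 0.12, adjusted p = 2.49e-07, edgeR). LGR5 and TBX3 were the 2 of 10 members that were higher without overlap, against 0.248% of the 12115 genes with a mean of at least 1 CPM. Both were called in each of the 17 alternative fits.

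NKD1 had 120 reads in CYP2E1-high cells and 0 in the 1024 CYP2E1-low cells, which at 3 counts of the total allows up to 0.293% of those cells to have a read at this depth. Its level in CYP2E1-high cells was 0 to 2.27 CPM (median 0.949), with the 0 at days 40 to 50 of gestation. Against a floor of 3 counts over all CYP2E1-low cells, NKD1 was at least 40.2-fold higher in CYP2E1-high cells. It had reads there in 8 of 9 stages and was called in edgeR (adjusted p = 0.0101). With no read in CYP2E1-low cells, NKD1 passed the filter on low counts only through the class where it is high, so its call adds no support to the count of members that were higher.

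The ligases ZNRF3 and RNF43, which take Frizzled receptors off the cell surface and are held back by R-spondin bound to LGR receptors, differed in their values. ZNRF3 had 10.4 to 23.3 CPM in CYP2E1-high cells (median 17.9) and 6.66 to 11.7 CPM in CYP2E1-low cells (median 9.16). It was higher in 8 of 9 stages, by 0.84 on the log2 scale (SE 0.15, adjusted p = 0.00153, edgeR). RNF43 had a median of 9.85 CPM in CYP2E1-high cells and 8.87 CPM in CYP2E1-low cells, with a fitted value of 0.20 in log2 (SE 0.13, adjusted p = 0.449, edgeR), and was not called. The difference between the ligases was not tested.

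AXIN2 had 1.72 to 11.4 CPM in CYP2E1-high cells (median 4.22), against 1.21 to 4.19 CPM in CYP2E1-low cells (median 2.09). It was higher in 8 of 9 stages, by 0.79 (SE 0.23, adjusted p = 0.0437, edgeR). This call was lost in 11 of 17 alternatives, whose adjusted p ran from 0.0209 to 0.177 and whose log2 fold changes ran from 0.66 to 0.96. They include leaving out any stage but days 90 to 100 or 100 to 120 of gestation.

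CTNNB1, present in nearly every cell, was higher by 0.34 (SE 0.07, adjusted p = 0.00771, edgeR). Its median level was 393 CPM in CYP2E1-high cells and 327 CPM in CYP2E1-low cells, and it was higher in 8 of 9 stages. LGR4 was the member that was lower, with a median of 37.5 CPM in CYP2E1-high cells and 45.5 CPM in CYP2E1-low cells. It was lower in 8 of 9 stages, and the fit gave -0.38 in log2 (SE 0.10, adjusted p = 0.0247, edgeR). That call was lost in 6 of 17 alternatives (adjusted p 0.00344 to 0.137), among them the fits without days 40 to 50 or 90 to 100 of gestation or day 15 of lactation. TCF7L2 (-0.15, SE 0.08, adjusted p = 0.327) and APC (-0.08, SE 0.10, adjusted p = 0.731) were not called.

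**Figure D2:**
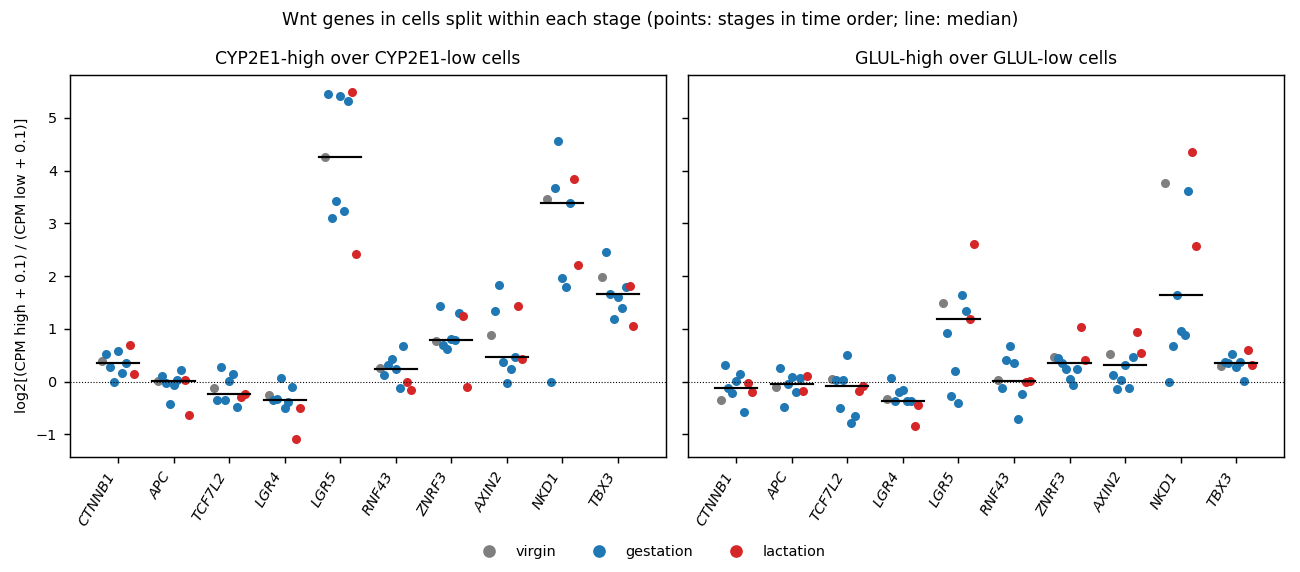
Log2 ratio of each gene's CPM between classes of cells split within a stage by CYP2E1 (left) or GLUL (right), with 0.1 CPM added to both sides. Each point is a stage in time order and each line the median of the 9 stages. For LGR5 and TBX3 all 9 CYP2E1 points lie above 0, and LGR4 lies mostly below 0 in both panels.

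Cells ordered into 5 equal bins by CYP2E1 gave the shape of these differences, as a description. The median share of cells with LGR5 reads over the 9 stages was 1.47, 7.29, 16.7, 22.2 and 36.6% from the lowest to the highest bin. The median level of TBX3 climbed over all of the bins, with 45.5, 81.8, 122, 141 and 158 CPM. The summed level of AXIN2 was 2.26 to 2.81 CPM in the lower 4 bins and 5.35 CPM in the highest, while its median share of cells was 11.3, 12.7, 19.0, 21.1 and 22.6% over the bins. NKD1 had a median of 0 CPM in the lowest 2 bins and 0.0908, 0.403 and 1.04 CPM above them. ZNRF3 had 8.39, 11.5, 11.5, 15.1 and 17.7 CPM over the bins, and LGR4 had 48.6, 40.4, 42.7, 38.6 and 35.0 CPM. For comparison, the periportal glutaminase GLS2 had 284 CPM in the lowest bin and 9.57 CPM in the highest.

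**Figure D3:**
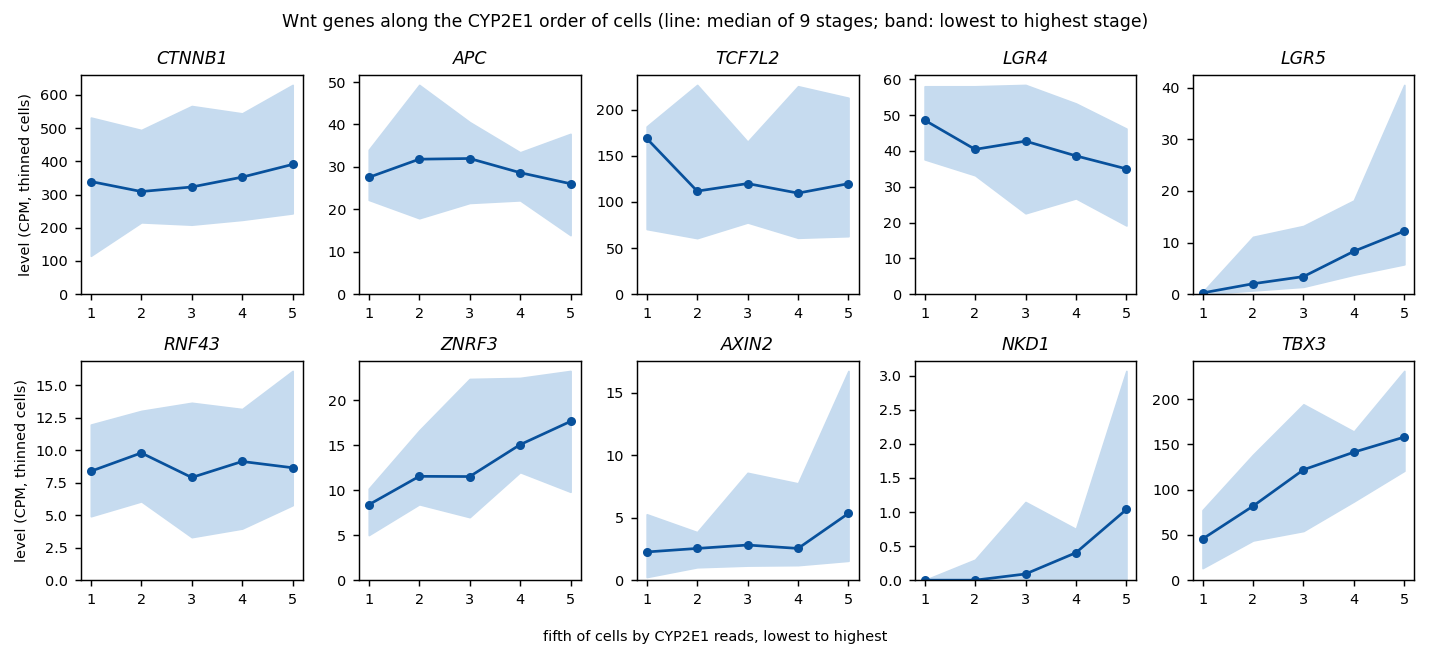
Level of each gene (CPM in thinned cells, vertical axes from 0) in 5 equal bins of cells ordered by CYP2E1 within a stage. The line is the median of the 9 stages and the band spans the lowest to the highest stage. LGR5, TBX3, ZNRF3 and NKD1 climb towards the highest bin, the AXIN2 median level is highest in the last (5.35 CPM), and RNF43 and APC show no such climb.

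GLUL, glutamine synthetase, marks the innermost ring of pericentral hepatocytes in mouse and is a direct target of beta-catenin. Here its reads lay in few cells, with 93.5 to 97.4% of the reads of a stage in the top 10% of cells. Of the 3063 thinned cells 1927 had no GLUL read, and these formed the GLUL-low class. The 788 GLUL-high cells lay above the same upper quantile of their stage, which was 0 to 2 reads, and 540 cells lay within 2-fold of it. GLUL-high cells had more genes detected than GLUL-low cells in 8 of 9 stages, and CYP2E1-high cells more than CYP2E1-low cells in 3 of 9. In GLUL-high cells 3 of 10 members were higher (background 1.03% of 15851 genes) and 1 was lower (background 1.91%), and 0 were higher without overlap (background 0.0164%). Of the 3, NKD1 had 28 reads in GLUL-low cells, with 0 in 3 stages, and 112 in GLUL-high cells. It entered the test largely through GLUL-high cells, so its call adds little to this count. The members' median log2 fold change was 0.18, against -0.03 over all genes tested. Over all genes 163 were higher and 303 lower, or 212 and 83 with library size as the only scaling, under which 2 members (LGR5 and TBX3) were higher and 0 lower.

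TBX3 was higher in GLUL-high cells in 9 of 9 stages, with 83.5 to 167 CPM (median 139) in GLUL-high cells and 65.0 to 130 CPM (median 101) in GLUL-low cells. The fit gave 0.34 in log2 (SE 0.06, adjusted p = 0.00287, edgeR), and TBX3 was called in each of the 17 alternatives. LGR5 had a median of 8.79 CPM in GLUL-high cells and 3.60 CPM in GLUL-low cells, and was higher in 7 of 9 stages (0.99 in log2, SE 0.26, adjusted p = 0.0489, edgeR). The 2 exceptions were days 50 to 70 and 90 to 100 of gestation. NKD1 had 112 reads in GLUL-high cells and 28 in GLUL-low cells, a 9.78-fold ratio after division by the classes' total reads (95% counting interval 6.42 to 15.4), and was called (adjusted p = 0.0492, edgeR). LGR4 had a median of 36.2 CPM in GLUL-high cells and 47.0 CPM in GLUL-low cells, a difference of -0.33 in log2 (SE 0.08, adjusted p = 0.0304, edgeR). ZNRF3 (0.35, SE 0.11, adjusted p = 0.116) and AXIN2 (0.32, SE 0.18, adjusted p = 0.494) were not called in edgeR, and ZNRF3 was called in DESeq2 (adjusted p = 0.0487). The other 4 members had log2 fold changes of -0.18 to 0.05.

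The calls of LGR5, LGR4 and NKD1 in the GLUL comparison were near the threshold, and were lost in 9, 9 and 11 of 17 alternatives. Their log2 fold changes ran from 0.79 to 1.79 for LGR5, from -0.46 to -0.26 for LGR4 and from 2.97 to 4.51 for NKD1, with adjusted p up to 0.160, 0.138 and 0.135. Without 1 stage at a time, LGR5 was called only without days 50 to 70 or 90 to 100 of gestation, LGR4 only without days 40 to 50, 70 to 80 or 90 to 100, and NKD1 only without days 40 to 50 or 50 to 70. Macrophage markers moved with this split. Their summed level was 15.1 to 153 CPM in GLUL-high cells (median 36.8), against 3.45 to 26.7 CPM in GLUL-low cells (median 9.90), higher in 9 of 9 stages, and 5 of the 7 tested were called higher. Endothelial markers had a median of 13.5 CPM in GLUL-high cells and 5.63 CPM in GLUL-low cells, and were higher in 8 of 9 stages. The hepatocyte markers were higher in GLUL-high cells in 1 of 9 stages (median 154349 CPM, against 166294 CPM in GLUL-low cells). Of the 12 tested, 7 were called lower, where 1.91% of all genes were. ALB, FGB, CPS1 and TAT of this list are also in the list of periportal genes, of which 10 of 21 tested were called lower. A lower sum can thus not be told apart from zonation. The part of these markers in the member values was not tested. In 2745 cells with at most 20 thinned reads on markers of other cells, TBX3 was at 0.33 (adjusted p = 0.00384, edgeR), LGR5 at 0.84 (adjusted p = 0.160), NKD1 at 3.41 (adjusted p = 0.0704) and LGR4 at -0.27 (adjusted p = 0.138). In the CYP2E1 comparison 0 of the 7 macrophage markers were called in edgeR or DESeq2 (0 at an unadjusted p under 0.05). Their sum was higher in CYP2E1-high cells in 7 of 9 stages (median 21.7 CPM, against 16.8 CPM in CYP2E1-low cells). LGR5 was at 4.00 and TBX3 at 1.68 in this comparison in the same 2745 cells. Endothelial markers (median 7.17 CPM in CYP2E1-high cells, 11.1 CPM in CYP2E1-low cells) and lymphocyte markers (8.87 and 15.6 CPM) were higher in CYP2E1-high cells in 1 of 9 stages each, and stellate markers in 0 of 9. Of those tested, 1 of 7 endothelial and 2 of 8 stellate markers were called lower.

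Cells were also sorted by their number of GLUL reads. The strata were chosen after the spread of GLUL reads had been seen and are a description. In the 104 cells with 100 or more GLUL reads, 51 (49.0%, exact 95% interval 39.1 to 59.0%) had LGR5 reads, against 255 of 1927 (13.2%, 11.8 to 14.8%) of the cells with none. AXIN2 was read in 42 of the 104 cells (40.4%, 30.9 to 50.5%), against 15.8% (14.2 to 17.5%) of the cells with none. Most cells with LGR5 reads lay outside the 104, and 255 of 504 had no GLUL read. NKD1 was read in 20 of the 104 (19.2%, 12.2 to 28.1%), against 12 of 1927 (0.623%, 0.322 to 1.09%). In the 134 cells with 10 to 99 GLUL reads the shares were 29.9% for LGR5, 26.1% for AXIN2 and 7.46% for NKD1, and each lay between those of the strata on either side. TBX3 had 208 CPM in the 104 cells and 102 CPM in the cells with no GLUL read, while LGR4 had 30.4 and 42.9 CPM.

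The 104 cells came from every stage but unevenly, with 15 from the virgin sample, 3 to 9 from each gestation stage, 10 from day 7 of lactation and 43 from day 15. At day 15 of lactation they were 8.69% of the cells (exact 95% interval 6.36 to 11.5%), and in the other 8 stages 1.19 to 4.44%. The intervals of day 7 (2.15 to 8.02%) and of days 70 to 80 (1.95 to 7.87%) overlapped that of day 15, and the rest ended at or below 5.09%. They cover counting error within 1 sample only. LGR5 was read in 12 of the 15 from the virgin sample, 7 of the 10 from day 7 and 15 of the 43 from day 15. In gestation it was read in 4 of 5, 0 of 3, 6 of 9, 2 of 7, 2 of 5 and 3 of 7 in order of day. AXIN2 was read in 6 of the 15 from the virgin sample, 0 to 3 cells of each gestation stage, 8 of the 10 from day 7 and 19 of the 43 from day 15. In all thinned cells AXIN2 also had its highest shares in lactation (33.8% at day 7 and 27.5% at day 15). The mean summed level of macrophage markers was 50.1 CPM in the 104 cells and 9.77 CPM in those with no GLUL read, with a median of 0 in both, and its part in these shares was not tested.

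**Figure D4:**
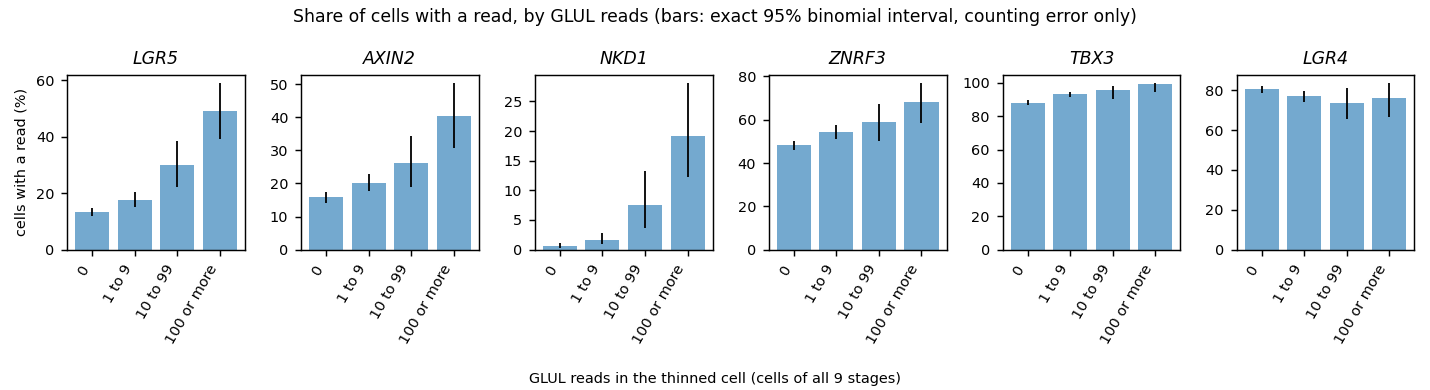
Share of thinned cells with a read of 6 of the genes (percent, vertical axes from 0), by the number of GLUL reads in the cell, over all 9 stages, with exact 95% binomial intervals that cover counting error only. LGR5, AXIN2 and NKD1 stand at 49.0, 40.4 and 19.2% of the 104 cells with 100 or more GLUL reads, and LGR4 shows no such climb.

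Rank correlations across the cells of a stage are given as a description over 213 to 495 thinned cells per stage that share the depth they were thinned to. With CYP2E1, TBX3 had a mean Spearman rho of 0.47 over the stages (0.36 to 0.63) and LGR5 0.32 (0.12 to 0.49), both above 0 in 9 of 9 stages. ZNRF3 had 0.17, NKD1 0.14 over the 8 stages with reads, CTNNB1 0.12 and AXIN2 0.11. RNF43 was at 0.00, APC and TCF7L2 at -0.04 and LGR4 at -0.11, below 0 in 8 of 9 stages. Over 8716 genes read in at least 20% of cells the median was -0.01, with 5% of genes below -0.12 and 5% above 0.11. With GLUL, TBX3, LGR5 and NKD1 had 0.17, 0.17 and 0.16, ZNRF3 0.11 and AXIN2 0.07, and LGR4 had -0.05. The other 4 members lay between -0.01 and 0.04 there, and the background had a median of 0.01 with 5% of genes above 0.07. GLUL and CYP2E1 themselves had 0.23. Correlations of sparse genes are bounded by their many cells without reads, so the values of LGR5, AXIN2 and NKD1 are not on the scale of those of TBX3 or CTNNB1.

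**Figure D5:**
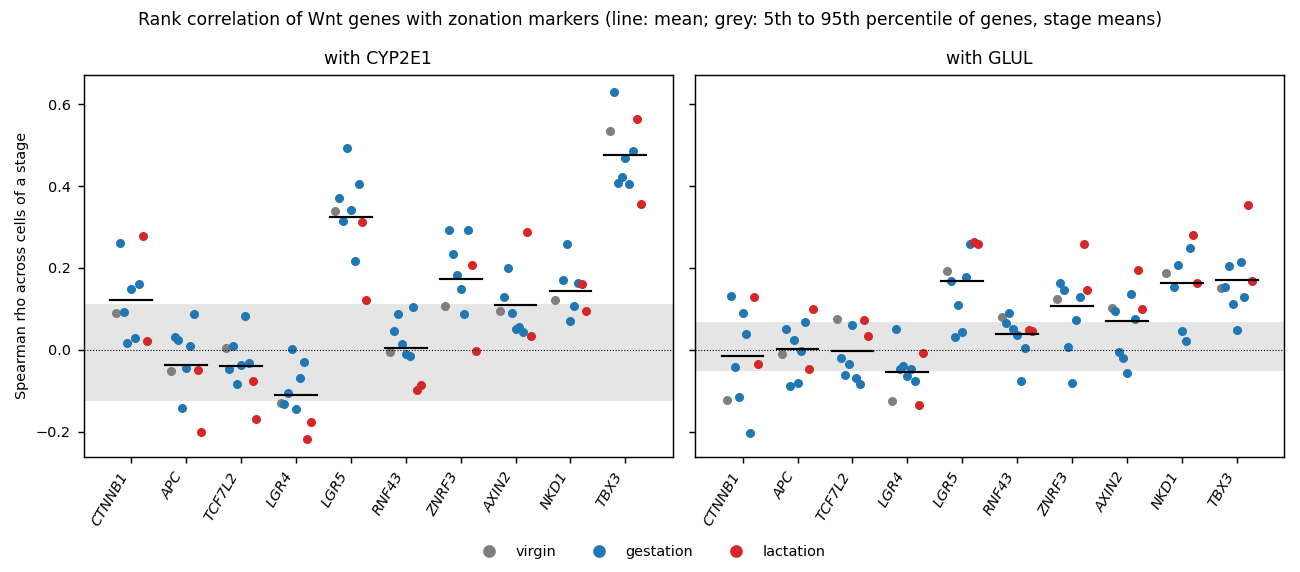
Spearman rho across the cells of a stage between each gene and CYP2E1 (left) or GLUL (right). Points are stages in time order, lines are means, and the grey band spans the 5th to 95th percentile of the stage means of 8716 genes. TBX3 and LGR5 lie above the band with CYP2E1 in every stage, at means of 0.47 and 0.32.

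The genes most like a member across cells were found for the 7 members read in at least 20% of cells. TBX3 went with FMO1, a flavin-containing monooxygenase (mean within-stage rho 0.48), CYP2E1 (0.47) and CYP2A6, another cytochrome (0.43). ZNRF3 went with the ammonium transporter RHBG (0.20) and CYP2A6 (0.18). CTNNB1 went with beta-actin (ACTB, 0.47), the 14-3-3 protein YWHAE (0.46) and the splicing factor SRSF2 (0.42). The best partners of the other 4 were weaker, at 0.16 for LGR4 (MTARC2), 0.16 for TCF7L2 (GCLC), 0.15 for APC (ONECUT2) and 0.11 for RNF43 (EML5). Among the 45 pairs of members the highest mean rho was 0.26, between LGR5 and TBX3, and the median was 0.03.

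The size of the class differences was also compared between phases. No member was called for a change between lactation and gestation in its CYP2E1 difference (0 of 10 called, background 0.0119% of 16847 genes) or its GLUL difference (0 of 10 called, background 0.0% of 17148 genes) in edgeR, and DESeq2 called 0 members as well. At an unadjusted p under 0.05 there was 1 member for CYP2E1, where 716 of 16847 genes lay under it. For GLUL there were 2 members, where 500 of 17148 genes lay under it. LGR4 had a difference of -0.53 (SE 0.23, adjusted p = 1, edgeR) for CYP2E1 and -0.41 (SE 0.19, adjusted p = 1) for GLUL. The GLUL difference of LGR5 had a fitted value of 1.38 in log2, lactation minus gestation (SE 0.57, adjusted p = 1). Over the 17 alternatives these values ran from -0.84 to -0.24 and from -0.59 to -0.06 for LGR4 and from 0.65 (without day 15 of lactation) to 2.14 (without day 7) for LGR5. At day 15 of lactation LGR5 had the smallest CYP2E1 ratio of the 9 stages (2.42 on the log2 scale, with 5.49 at day 7) and the largest GLUL ratio (2.61). These ratios have 0.1 CPM added to both sides, while LGR5 in CYP2E1-low cells was at 0.079 to 2.76 CPM over the stages. Before thinning, 1 cell held 25.0% of the LGR5 reads at day 15, and 1 cell held 11.3% at day 7. The part of such cells in the ratios, and the difference between the 2 days, were not tested.

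Other genes of the pathway were taken from 6 lists, by their roles. Of 26 genes for ligands and their release only 3 had enough reads for the CYP2E1 comparison. WLS, the carrier that brings Wnt proteins to the surface, was higher in CYP2E1-high cells (1.28, SE 0.31, adjusted p = 0.0178, edgeR), and WNT5A, a ligand of the noncanonical branch, was lower (-3.66, SE 0.86, adjusted p = 0.0139). WNT5A rested on 12 reads in CYP2E1-high cells, at most 0.273 CPM in a stage, and 152 in CYP2E1-low cells. It passed the filter on low counts only through the class where it is high, so its call adds no support. Stellate markers were lower in CYP2E1-high cells in 9 of 9 stages, at 1.93 to 21.2 CPM against 4.98 to 43.5 CPM. Their part was not tested. The ligands WNT2 and WNT9B and the amplifier RSPO3, which mouse endothelium makes, were at or below 0.417 CPM in every stage. Of 9 receptor genes tested 0 were called in edgeR (1 at an unadjusted p under 0.05, as were 3042 of all 15536 genes) or DESeq2. FZD5 was at -0.11 (SE 0.11) and LRP6 at -0.12 (SE 0.08).

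Among 13 inhibitors tested 5 were higher in CYP2E1-high cells and 1 lower, where 4.57% and 3.66% of all genes were, with a list median of 0.15 against -0.01 over all genes. WIF1, a secreted factor that binds Wnt proteins, was higher by 4.87 (SE 0.56, adjusted p = 3.6e-05, edgeR), and NOTUM, an enzyme that takes the lipid off Wnt proteins, by 0.54 (SE 0.13, adjusted p = 0.0139). The others were the members ZNRF3, NKD1 and AXIN2, of which NKD1 entered the test only through CYP2E1-high cells and adds no support to the count. CTNNBIP1, which keeps beta-catenin off TCF factors and was chosen after its values were seen, was lower (-0.68, adjusted p = 0.036). Of 20 genes of signal transduction 1 was higher (CTNNB1). Of 13 nuclear factors TCF7 was higher (1.48, SE 0.26, adjusted p = 0.00148) and TCF7L1 lower (-0.94, SE 0.27, adjusted p = 0.0394).

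Of 21 target genes tested 12 were higher and 1 was lower in CYP2E1-high cells, where 4.57% and 3.66% of all genes were, with a list median of 0.61. The list holds 6 of the 10 members, so its count is not separate from theirs. Among those higher is NKD1, which entered the test only through CYP2E1-high cells and adds no support to the count. RHBG was higher by 3.52 (SE 0.19, adjusted p = 1.3e-08, edgeR) and GLUL by 4.53 (SE 0.35, adjusted p = 5.32e-07). The target that was lower was OAT, ornithine aminotransferase, which is pericentral in mouse liver. It was lower in CYP2E1-high cells in 9 of 9 stages (-3.58, SE 0.30, adjusted p = 1.41e-06, edgeR), with a median of 0.870 CPM, against 10.3 CPM in CYP2E1-low cells. In the GLUL comparison 6 of 21 targets were higher and 1 lower, where 1.03% and 1.91% of all genes were. Among the 6 is NKD1, which entered that test largely through GLUL-high cells. WIF1 was higher by 4.16 there (SE 0.31, adjusted p = 5.34e-07, edgeR), and its classes did not overlap, with medians of 19.0 CPM in GLUL-high cells and 1.55 CPM in GLUL-low cells. SP5, a transcription factor induced by Wnt, was higher by 2.61 (SE 0.33, adjusted p = 0.000184) and RHBG by 1.54 (SE 0.11, adjusted p = 3.23e-07). Between lactation and gestation edgeR called 0 genes of the 12 ligands, 15 receptors, 19 inhibitors, 20 transduction genes, 13 nuclear factors and 23 targets tested. At an unadjusted p under 0.05 there were 3, 2, 3, 0, 2 and 4 of them, where 1905 of all 20263 genes tested lay under it. DESeq2 called 2 inhibitors, 1 nuclear factor and 3 targets, where it called 523 of all 20263 genes. Limma called 1 inhibitor, where it called 50 of 12164 genes.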

How the data were processed

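The deposited table holds raw read counts per gene and cell. The tools named in the submitters' processing notes are featureCounts 2.0.1, HISAT2 2.1.0 and Trimmomatic 0.39. Genome build, strand setting and any collapse of molecular identifiers are not given in the sources used here, so intervals cover counting error only. Of 28861 rows 24 named no gene (0.474% of reads) and were left out. All symbols were found in RefSeq (ARS-UI_Ramb_v3.0, names only). Gene length in bases, another deposited column of the authors, served only for levels per kilobase.

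Reads were summed per stage, or per class of cells within a stage, and fitted with edgeR 4.0.16 (filterByExpr, TMM, quasi-likelihood, Benjamini-Hochberg over all genes, threshold 0.05) in R 4.3.3, with phases as the groups (all 9 stages in 1 fit), or with stage as a block for the classes. The trend used midpoints of day ranges per 100 days. DESeq2 1.42.0 and limma 3.58.1 were alternatives, the latter only for genes with a mean of at least 1 CPM, which leaves out NKD1. For classes, shares and correlations reads were drawn down to 155164 in every cell (seed 1), the depth at the 10th percentile. This kept 3063 cells and left out 341. GLUL and CYP2E1 classes were the cells above the upper and at or below the lower of the 2 bounds that cut a stage into 3 equal parts. Shares above 0 have exact (Clopper-Pearson) 95% intervals. Where a count was 0, the limit given is 3 counts of the total, not a Clopper-Pearson bound. No doublet caller was run on these hand-picked cells. Other steps ran in Python 3.11.15 with SciPy 1.17.1, pandas 2.3.3, numpy 2.4.6 and, for figures, matplotlib 3.10.9. Before use, the fits had been tried on simulated counts of known fold changes.

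The members and lists were chosen with earlier results of these data known. Every comparison covers all 10 members, singly or by their range. From each pathway list the rule takes up to 4 called genes with the smallest p, or else the 2 with the highest mean CPM. Like genes are the 3 with the highest mean within-stage rho, LOC symbols left out. Not every gene the rule names is reported.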

Additional observations from a re-analysis of the deposited data

Results flagged for a closer look

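The share of cells with NKD1 reads at days 70 to 80 of gestation was 7.04%, apart from the other 5 gestation stages, which ran from 0 to 1.98%. Its gap to the nearest stage took up 0.718 of the whole range, above the critical value of Dixon's test for 6 samples. This was 1 of 40 sets of 6 gestation values tested, and chance gives about 1 in 20. In edgeR no member's class difference passed the test of its own change between lactation and gestation (0 of 10 for each marker, with 2 for GLUL and 1 for CYP2E1 at an unadjusted p under 0.05, and 0 in DESeq2). Over all genes, 500 of 17148 for GLUL and 716 of 16847 for CYP2E1 lay under that unadjusted p.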

How the results depend on the processing

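Counts of calls over all genes depended on the tool and the filter. DESeq2 called 523 genes between lactation and gestation (12 in edgeR), 117 for gestation against virgin (1), 96 for lactation against virgin (0), 306 over the trend (6), 712 for the GLUL classes (163 higher and 303 lower), and 3 and 19 for the GLUL and CYP2E1 differences between phases (0 and 2). Limma, with each cell weighted equally, called 50, 5, 3 and 18 in the first 4. With no filter the counts were 21 for lactation against gestation, 5 for gestation against virgin, 17 for the trend, 949 for the GLUL classes, and 48 and 108 for the GLUL and CYP2E1 differences between phases. Thinned cells gave 1, 3 and 11 for lactation against gestation, gestation against virgin and the trend. Library size only gave 22 for lactation against gestation and 295 for the GLUL classes. Without cells carrying markers of other cells the GLUL classes gave 211. The top 10% of cells, an alternative chosen after seeing the data like the last one, gave 839 for the CYP2E1 classes (1279 with 3 classes), and 2 and 1 for the GLUL and CYP2E1 differences between phases. All reads, 2 classes and an unthinned split each gave 0 for the CYP2E1 difference between phases. Without 1 stage at a time the counts ran from 1 to 45 for lactation against gestation, 1 to 2 for gestation against virgin, 0 to 1 for lactation against virgin, 0 to 9 for the trend, 303 to 436 for the GLUL classes, 983 to 1198 for the CYP2E1 classes, and 0 to 2 and 0 to 5 for the GLUL and CYP2E1 differences between phases. The cause was not tested.

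Of the members' log2 values checked for sign, 8 turned, all of genes not called in the comparison. The check covered all members for the CYP2E1 classes, the GLUL classes and lactation against gestation. For the trend it covered AXIN2, LGR5, LGR4 and ZNRF3. For the differences between phases it covered LGR4, and for GLUL LGR5 as well. The comparisons with the virgin sample were not checked in this way. With library size only, APC was at 0.0219 in the GLUL classes and 0.0277 in lactation against gestation. Without 1 stage at a time RNF43 ran from -0.0292 to 0.143 in the GLUL classes and from -0.186 to 0.288 in lactation against gestation. APC ran from -0.0818 to 0.00359 and from -0.334 to 0.00306 in the same comparisons, and the AXIN2 trend from -1.40 to 0.157. The 80 mean correlations recomputed moved by less than 1 SD over stages. For the phase comparisons and the trend, no pairing of samples could be made, while the class comparisons have stage as a block. No paired analysis was possible because, between phases, the labels give no replicate numbers that samples of different phases share. Alternatives within plates or animals were not run because the cell names used here carry neither. Precision is limited by 1 sample per stage and, for NKD1, by reads in 57 cells.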
